A study of Mus musculus with 6 samples.

Results

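The miR-200 family is made up of 5 related precursor miRNAs, miR-200a, miR-200b, miR-429, miR-200c, and miR-141, each of which can give a 3p and a 5p mature strand. All 10 mature strands were found, by name, among the 1831 miRNAs of the deposited comparison table, and all 10 are described here. Small RNAs of the small intestinal mucosa were measured on 6 one-colour arrays, 1 per mouse. The control group was 3 wildtype littermates, and the other group was 3 Cdr1as-/- mice, in which a pair of guide RNAs and Cas9 had removed the locus of the circular RNA Cdr1as in embryos of a pure C57BL/6J background. Animals were fasted before experiments. Their ages are not stated, and the probes of the array are for small RNAs, so the loss of Cdr1as itself could not be checked on it.

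The miR-200 family is best known from epithelial cells, where its 3p strands repress the transcription factors ZEB1 and ZEB2 and thereby favour the epithelial state, including E-cadherin expression. The 3p strand is the guide that is loaded into Argonaute from each of these hairpins, while the 5p strand is the passenger, most of which is degraded. Target choice depends mainly on the seed, bases 2 to 8 of the mature strand. The intestinal mucosa holds absorptive, goblet, Paneth, and other epithelial cells together with stroma and immune cells, so a level measured in it is that of the mixture. In such bulk samples, fewer cells of a type and less RNA per cell cannot be told apart.

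The sequences are shown because the family is divided in one way by genome position and in another by seed. They are given 5′ to 3′ from RefSeq (GRCm38.p6), were the same in the deposited table for 10 of 10 strands, and carry the seed in capitals.
mmu-miR-200a-3p: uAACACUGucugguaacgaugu
mmu-miR-141-3p: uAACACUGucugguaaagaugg
mmu-miR-200b-3p: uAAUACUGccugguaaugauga
mmu-miR-200c-3p: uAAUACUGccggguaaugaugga
mmu-miR-429-3p: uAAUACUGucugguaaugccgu
mmu-miR-200a-5p: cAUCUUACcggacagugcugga
mmu-miR-200b-5p: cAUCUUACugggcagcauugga
mmu-miR-200c-5p: cGUCUUACccagcaguguuugg
mmu-miR-141-5p: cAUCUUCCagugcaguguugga
mmu-miR-429-5p: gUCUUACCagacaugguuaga

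The genes for miR-200b, miR-200a, and miR-429 lie within 1846 bases on the minus strand at chr4:156053905-156055750 (GRCm38.p6), overlapping the annotated gene Gm13648. Those for miR-200c and miR-141 lie within 477 bases on the minus strand at chr6:124717914-124718390, between Ptpn6 and Phb2. The seeds cross these clusters: mmu-miR-200b-3p, mmu-miR-429-3p, and mmu-miR-200c-3p share one, and mmu-miR-200a-3p and mmu-miR-141-3p share the other, which differs from the first at a single base of the mature strand (U4C, read from mmu-miR-200b-3p to mmu-miR-141-3p and counted from 1 at the 5′ end). In the table of 1831 miRNAs, 3 rows carried the first of these seeds and 2 the second, all of them family members. Outside the seed, mmu-miR-200b-3p and mmu-miR-200c-3p differed at 2 of the 22 positions compared (U11G and A22G), and mmu-miR-200a-3p and mmu-miR-141-3p also at 2 (C17A and U22G). The probe sequences were not used here, and a probe for one of these close relatives may also bind the other, so their signals are not fully separate. Among the 5p strands only mmu-miR-200a-5p and mmu-miR-200b-5p shared a seed.

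One array stood apart before any comparison. The median processed signal, which is the spot intensity after local background subtraction, over the miRNA probes was 236 in littermate 3, 29.2 in Cdr1as-/- mouse 1, and from 8.75 to 14.1 elsewhere. The deposited normalized level, in log2 units, is used below, and its median over all rows lay between 4.61 and 4.77 on the 6 arrays. The scan date recorded for littermate 1 differed from the one shared by all other arrays, so scan and mouse cannot be told apart there. One slide carried the arrays of all littermates and of Cdr1as-/- mouse 1, and the other those of Cdr1as-/- mice 2 and 3, so slide and genotype overlap in large part. Differences between the genotypes are therefore given with all 6 arrays and with 5, without littermate 3. Each family member was read by 5 probes, none of which is compared in level with another. Of the 300 spots of the family, 295 were well above background, and the other 5 were all those of mmu-miR-429-5p in Cdr1as-/- mouse 2. Of all miRNA probes, 66.8%, 84.7%, and 100% were well above background in littermates 1, 2, and 3. In Cdr1as-/- mice 1, 2, and 3 the share was 96.8%, 41.5%, and 79.3%. In littermate 3, where every miRNA probe was well above background, this mark does not set the family apart.

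The 5 guide strands were lower in littermate 3 than the mean of littermates 1 and 2, with differences of -4.24 to -2.85 log2 units, whereas each Cdr1as-/- mouse was within 1 log2 unit of that mean. mmu-miR-200b-3p was at 13.19, 13.29, and 10.16 in littermates 1, 2, and 3, against 12.92, 13.18, and 13.13 in Cdr1as-/- mice 1, 2, and 3. Every Cdr1as-/- value of this strand was just below those of littermates 1 and 2 and far above that of littermate 3. mmu-miR-200a-3p, from the same cluster, was at 12.85, 13.13, and 9.54 in the littermates, against 12.54, 12.92, and 12.93 in Cdr1as-/- mice. mmu-miR-429-3p was at 11.18, 11.42, and 7.06 in the littermates, against 10.32, 11.23, and 11.38 in Cdr1as-/- mice. For both of these strands the groups overlapped, and Cdr1as-/- mouse 1 was the lowest of the Cdr1as-/- mice.

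The guide strands of the other cluster followed the same order of arrays at the low end. mmu-miR-200c-3p was at 12.27, 12.09, and 8.56 in the littermates, against 11.58, 12.12, and 11.85 in Cdr1as-/- mice. mmu-miR-141-3p was at 12.49, 12.67, and 9.73 in the littermates, against 12.23, 12.53, and 12.64 in Cdr1as-/- mice. Littermate 3 was lowest and Cdr1as-/- mouse 1 next to lowest for each of the 5 guide strands.

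**Figure D1:**
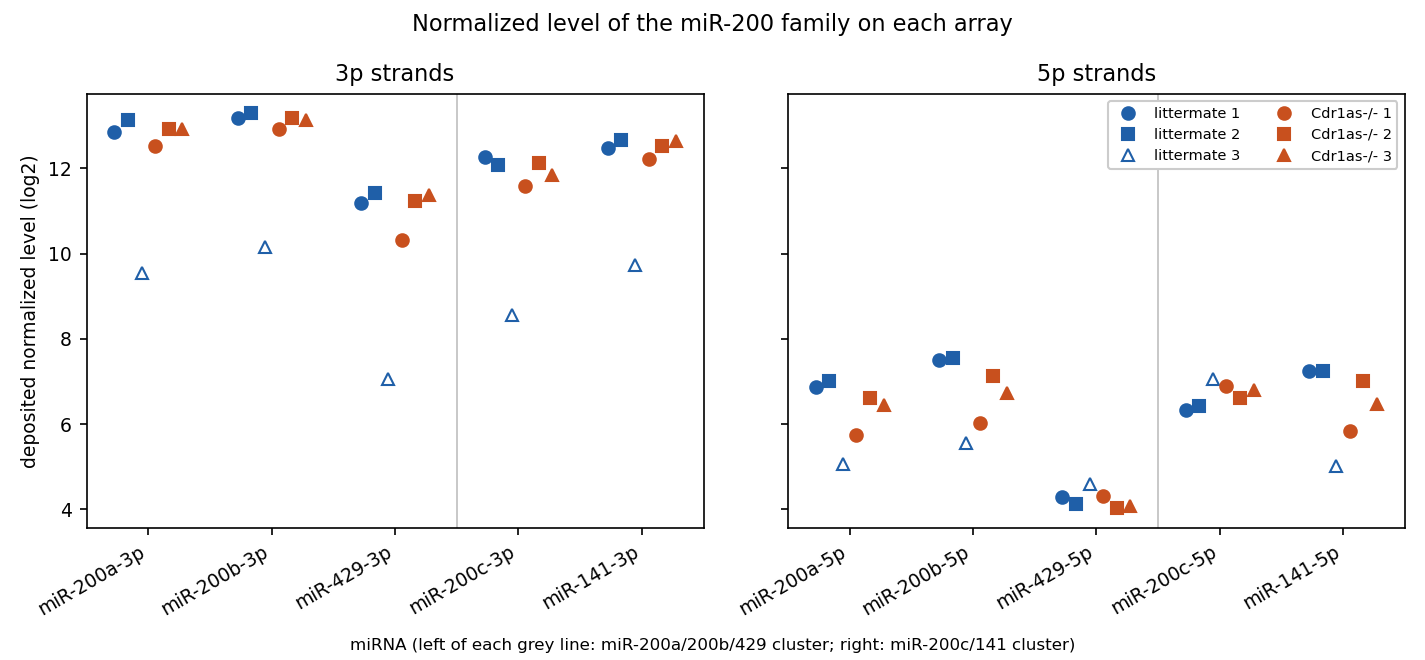
Deposited normalized level (log2, y axis) of the 3p (left) and 5p (right) strands of each precursor (x axis) on the 6 arrays, 1 point per array. Blue points are littermates and orange points Cdr1as-/- mice, and the open triangle is littermate 3, in which mmu-miR-200b-3p was at 10.16 while the other 5 arrays were between 12.92 and 13.29; different miRNAs are not compared in level.

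Over all 6 arrays, the guide strands differed between the groups by less than the spread of the littermates. The largest of the 5 differences, that of mmu-miR-429-3p, was 1.09 log2 units higher in Cdr1as-/- mice (9.89 ± 2.45 in littermates against 10.98 ± 0.57 in Cdr1as-/- mice, SD, n = 3 each), with a 95% limma interval of -1.79 to 3.97. The smallest, that of mmu-miR-141-3p, was 0.84 higher with an interval of -1.10 to 2.77. With limma and Benjamini-Hochberg adjustment over all 1831 rows, the adjusted p was 0.99997 for each guide strand. Without littermate 3 the sign of all 5 turned: the differences ran from -0.33 for mmu-miR-429-3p to -0.11 for mmu-miR-141-3p, with limma adjusted p from 0.480 to 0.799. For mmu-miR-200b-3p the difference was then -0.16 with an interval of -0.69 to 0.36, which spans a fall and a rise, and that of mmu-miR-200c-3p was -0.32 with an interval of -0.90 to 0.25. On the slide that holds both genotypes, the guide strands of Cdr1as-/- mouse 1 were on average 0.61 above the mean of the 3 littermates, while their mean difference from littermates 1 and 2 alone was -0.54.

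The signal before scaling between arrays placed littermate 3 differently. For mmu-miR-200b-3p the processed signal, averaged over its 5 probes, was 7326, 8730, and 7132 in the littermates, against 8924, 7316, and 6836 in Cdr1as-/- mice. For mmu-miR-200a-3p it was 5625, 7766, and 5047 in the littermates, against 6859.8, 6176, and 6031 in Cdr1as-/- mice. For mmu-miR-429-3p it was 1370, 2036, and 1525 in the littermates, against 1778, 1668, and 1786 in Cdr1as-/- mice. Littermate 3 was the lowest array for mmu-miR-200a-3p and lay within the range of the others for mmu-miR-200b-3p and mmu-miR-429-3p. For mmu-miR-141-3p the processed signal was 3984, 5384, and 5808 in the littermates, against 5676, 4548, and 4672 in Cdr1as-/- mice, and for mmu-miR-200c-3p it was 3276, 3360, and 3534 in the littermates, against 3798, 3324, and 2522 in Cdr1as-/- mice. Littermate 3 was the brightest of the 6 arrays for mmu-miR-141-3p.

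The highest of the 6 signals was between 1.31 and 1.54 times the lowest for the 5 guide strands. Over all 1831 rows the median of this ratio was 33.3, and it was under 2 in 47 rows (2.57%), 5 of which were the guide strands. After scaling, the SD over the 6 arrays was 1.22 log2 units for mmu-miR-200b-3p, against 0.16 for the log2 signal before scaling. The median row went the other way, with an SD of 0.41 after scaling and 1.90 before it. The low normalized level of the guide strands in littermate 3 was shared by other bright miRNAs: of the 58 rows at 10 or more in littermates 1 and 2, the 5 guide strands among them, 51 (87.9%) were lower in littermate 3, with a median difference of -3.80, against -3.45 for the guide strands and 0.39 for all rows. Before scaling, the same 58 rows had a median log2 difference of 0.08 and the guide strands one of -0.13.

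**Figure D2:**
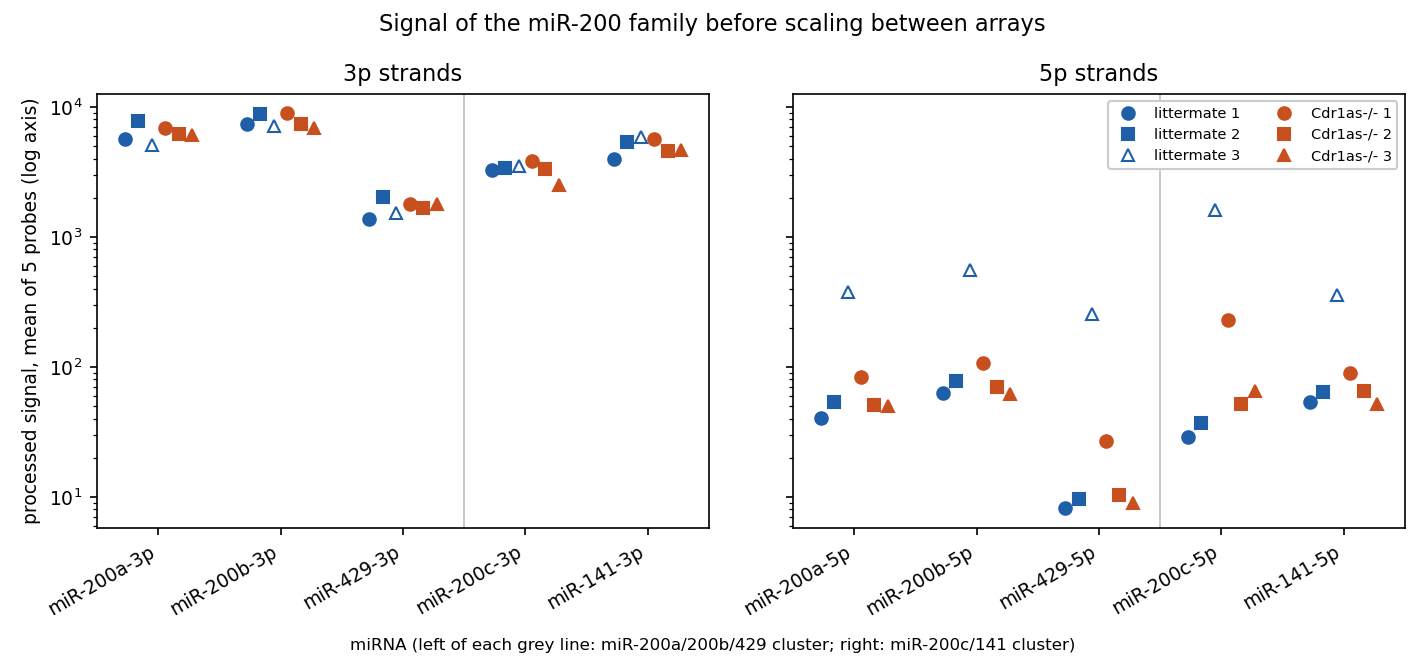
Processed signal before scaling between arrays, as the mean of 5 probes on a log axis (y), of the 3p (left) and 5p (right) strands of each precursor (x axis), 1 point per array. The 6 points of each 3p strand lie within a factor of 1.54, whereas littermate 3 (open triangle) is the highest array for every 5p strand, at 1600 for mmu-miR-200c-5p against 28.9 to 228 on the other arrays.

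The passenger strands were less alike. mmu-miR-200b-5p was at 7.501, 7.54, and 5.56 in littermates 1, 2, and 3, against 6.02, 7.13, and 6.72 in Cdr1as-/- mice 1, 2, and 3. mmu-miR-200a-5p was at 6.86, 7.01, and 5.07 in the littermates, against 5.75, 6.60, and 6.44 in Cdr1as-/- mice. mmu-miR-141-5p, which comes from the other cluster, was at 7.24, 7.24, and 5.01 in the littermates, against 5.84, 7.001, and 6.48 in Cdr1as-/- mice. In these 3 strands the order of the arrays was the same at the low end, with littermate 3 lowest and then Cdr1as-/- mouse 1, and all Cdr1as-/- mice lay between littermate 3 and the other littermates.

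mmu-miR-200c-5p and mmu-miR-429-5p had other patterns. mmu-miR-200c-5p was at 6.34, 6.43, and 7.05 in the littermates, against 6.90, 6.62, and 6.79 in Cdr1as-/- mice, so that littermate 3 was the highest array and Cdr1as-/- mouse 1 the next. mmu-miR-429-5p was at 4.29, 4.13, and 4.60 in the littermates, against 4.31, 4.02, and 4.06 in Cdr1as-/- mice. This strand was not well above background in Cdr1as-/- mouse 2, and its groups overlapped.

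Over all 6 arrays the passenger differences ran from -0.24 for mmu-miR-200b-5p (95% limma interval -1.75 to 1.26) to 0.16 for mmu-miR-200c-5p (interval -0.51 to 0.84), each with a limma adjusted p of 0.99997. On the slide that holds both genotypes, which sets Cdr1as-/- mouse 1 alone against the 3 littermates, the difference was -0.85 for mmu-miR-200b-5p, -0.66 for mmu-miR-141-5p, and -0.56 for mmu-miR-200a-5p, and the mean over the passenger strands was -0.36 in place of -0.08, with a limma adjusted p of 0.9996 for each strand. Among all 1831 rows, limma gave 0 after adjustment, and at an unadjusted p below 0.05 it gave 4 lower (0.218%) and 2 higher (0.109%) in Cdr1as-/- mice, none of them a family member. The methods' t-test also gave 0 after adjustment and 21 at an unadjusted p below 0.05.

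Without littermate 3, mmu-miR-200b-5p was 0.90 log2 units lower in Cdr1as-/- mice (a difference of -0.90, SE 0.33, 95% limma interval -1.64 to -0.15). Littermates 1 and 2 were at 7.52 ± 0.03 (SD, n = 2), against 6.63 ± 0.56 (SD, n = 3) for the Cdr1as-/- mice, and its limma p was 0.0234 before and 0.305 after adjustment. For mmu-miR-141-5p the difference was -0.80 (SE 0.34, interval -1.56 to -0.04), with a limma p of 0.0408 before and 0.364 after adjustment. For mmu-miR-200a-5p it was -0.67 (SE 0.30, interval -1.35 to 0.00), with a limma adjusted p of 0.378. None of these 3 differences passed after adjustment. mmu-miR-429-5p had a difference of -0.08 (interval -0.62 to 0.46), and mmu-miR-200c-5p had the opposite sign, at 0.39 (interval -0.14 to 0.92), with a limma adjusted p of 0.403.

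These values have to be read against the table as a whole. On the 5 arrays, 192 of 1831 rows had an unadjusted limma p below 0.05 and a lower level (10.5%) and 50 a higher one (2.73%), and limma called 0 after adjustment. The methods' t-test gave 174 at that unadjusted threshold and 0 after adjustment. The 2 family members among the 192 were mmu-miR-200b-5p and mmu-miR-141-5p, that is 2 of 10. Neither was past the unadjusted threshold with the methods' t-test, in which mmu-miR-200c-5p alone of the family was, as higher. Among all 1831 rows, that test gave 130 as lower and 44 as higher. Nor was either past it with the 75th percentile of the detected probes as scaling, in which limma instead gave 3 guide strands as lower, mmu-miR-200a-3p, mmu-miR-200b-3p, and mmu-miR-200c-3p. With that scaling, 235 of all 1831 rows were past the threshold as lower and 42 as higher, and 58.7% of all rows had a lower level. In 4 of 10 members, mmu-miR-200b-3p, mmu-miR-200a-5p, mmu-miR-200b-5p, and mmu-miR-141-5p, every Cdr1as-/- mouse was below littermates 1 and 2, as in 365 of all rows (19.9%), and in 1 of 10, mmu-miR-200c-5p, every one was above them, as in 371 of all rows (20.3%). The exact two-sided permutation p of those 5 members was 0.2, the smallest that 3 mice against 2 can give. With all 6 arrays the groups overlapped in every family member, while 50 rows (2.73%) had every Cdr1as-/- mouse below and 8 (0.437%) every one above all littermates, and the exact permutation p of the members ran from 0.3 to 1.

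Single arrays moved the passenger differences. Without littermate 3 and Cdr1as-/- mouse 1, mmu-miR-200b-5p differed by -0.60 (limma adjusted p = 0.505) and mmu-miR-141-5p by -0.50 (limma adjusted p = 0.643). Without littermate 3 and Cdr1as-/- mouse 2, which left 4 arrays, the difference was -1.15 for mmu-miR-200b-5p (limma adjusted p = 0.0302) and -1.08 for mmu-miR-141-5p (limma adjusted p = 0.0306). In that fit 175 of all rows (9.56%) passed as lower and 48 (2.62%) as higher after adjustment, so the 2 strands passed along with many others. The direction of both differences was the same in each of these fits, and their size depended on which of the mice was left out.

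**Figure D3:**
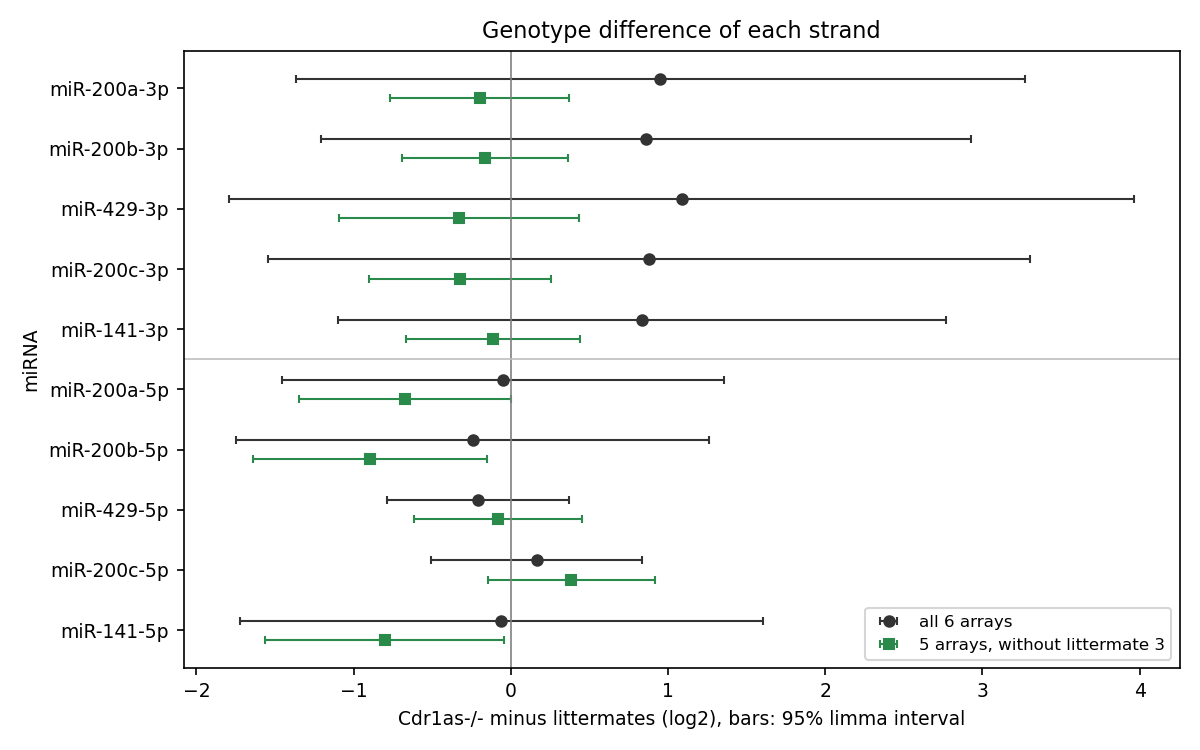
Cdr1as-/- minus littermates (log2, x axis) for each strand (y axis), with 95% limma intervals, over all 6 arrays (black circles) and over 5 arrays without littermate 3 (green squares). All 5 guide strands change sign between the 2 sets of arrays, and the intervals of mmu-miR-200b-5p and mmu-miR-141-5p on 5 arrays, which end at -0.15 and -0.04, leave out 0 before adjustment for multiple testing.

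Before scaling, the passenger strands were brighter, not dimmer, in littermate 3 and in Cdr1as-/- mouse 1. For mmu-miR-200b-5p the processed signal was 63.4, 77.1, and 551 in the littermates, against 106, 70.5, and 61.8 in Cdr1as-/- mice. For mmu-miR-141-5p it was 53.2, 63.6, and 358 in the littermates, against 90.0, 65.0, and 51.4 in Cdr1as-/- mice, and for mmu-miR-200a-5p 40.5, 53.6, and 376 in the littermates, against 82.9, 50.9, and 49.7 in Cdr1as-/- mice. On Cdr1as-/- mice 2 and 3 the signal of these 3 strands was thus close to that of littermates 1 and 2. For mmu-miR-200c-5p it was 28.9, 37.1, and 1600 in the littermates, against 228, 51.7, and 64.6 in Cdr1as-/- mice, all 3 of which were above littermates 1 and 2. For mmu-miR-429-5p it was 8.16, 9.57, and 253 in the littermates, against 26.7, 10.4, and 8.998 in Cdr1as-/- mice.

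Of the passenger strands, mmu-miR-200a-5p, mmu-miR-200b-5p, and mmu-miR-141-5p rose in signal on these arrays by less than the median miRNA of their range. Of the 339 rows between 6 and 8 in littermates 1 and 2, which include all passenger strands but mmu-miR-429-5p, the median log2 difference before scaling was 5.50 in littermate 3 and 2.74 in Cdr1as-/- mouse 1. For mmu-miR-200b-5p these differences were 2.98 and 0.60, for mmu-miR-141-5p 2.62 and 0.63, for mmu-miR-200a-5p 3.01 and 0.83, and for mmu-miR-200c-5p 5.61 and 2.80. On the normalized scale the 339 rows had a median difference of 0.63 in littermate 3 and 0.42 in Cdr1as-/- mouse 1, against -1.96 and -1.50 for mmu-miR-200b-5p and 0.66 and 0.52 for mmu-miR-200c-5p. mmu-miR-200c-5p was thus near the median of the rows of its range on both arrays and the other 3 strands were below it. Without any scaling and without littermate 3, the difference between the genotypes was 0.15 for mmu-miR-200b-5p and 0.20 for mmu-miR-141-5p, where the median of all rows was 0.77. The part of the array-wide signal in these differences was not tested further.

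To compare the clusters, each strand was set relative to its own mean in littermates 1 and 2, so that only differences between arrays enter. The mean of the 3 guide strands of the cluster of miR-200a, miR-200b, and miR-429 minus that of the 2 guide strands of the cluster of miR-200c and miR-141 was -0.10, 0.10, and -0.36 log2 units in littermates 1, 2, and 3, against -0.11, -0.02, and 0.10 in Cdr1as-/- mice 1, 2, and 3. The Cdr1as-/- mice covered about the same range as littermates 1 and 2. The cluster contrast between the genotypes was 0.11 over 6 arrays and -0.01 over 5. For the passenger strands the same contrast was 0.02, -0.02, and -0.37 in the littermates, against -0.42, -0.30, and -0.30 in Cdr1as-/- mice. All 3 Cdr1as-/- mice were below littermates 1 and 2, and littermate 3 lay within their range. How often other sets of strands take such positions was not counted. The difference between the genotypes was -0.22 over 6 arrays and -0.34 over 5. This contrast includes mmu-miR-429-5p, which was not well above background in Cdr1as-/- mouse 2. The passenger contrast was not shared by the strands of a cluster, since mmu-miR-141-5p followed mmu-miR-200b-5p of the other cluster, and mmu-miR-200c-5p, its neighbour on the chromosome, did not.

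The guide strands were also grouped by seed in place of position. The mean of mmu-miR-200b-3p, mmu-miR-429-3p, and mmu-miR-200c-3p minus that of mmu-miR-200a-3p and mmu-miR-141-3p was 0.09, -0.09, and -0.49 in the littermates, against -0.23, 0.00, and -0.12 in Cdr1as-/- mice. The seed contrast between the genotypes was 0.05 over 6 arrays and -0.12 over 5, and Cdr1as-/- mice 1 and 3 lay below littermates 1 and 2 but above littermate 3.

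The strands were then compared within each precursor, as the change of the 3p strand minus that of the 5p strand. For miR-200b this strand contrast was -0.03, 0.03, and -1.11 in littermates 1, 2, and 3, against 1.18, 0.33, and 0.69 in Cdr1as-/- mice 1, 2, and 3. For miR-141 it was -0.09, 0.09, and -0.62 in the littermates, against 1.05, 0.19, and 0.83 in Cdr1as-/- mice, and for miR-200a -0.07, 0.07, and -1.59 in the littermates, against 0.73, 0.26, and 0.44 in Cdr1as-/- mice. In these 3 precursors all Cdr1as-/- mice were above all littermates on the normalized scale, as in 15 (2.28%) of the 659 precursors with both strands in the table, and above littermates 1 and 2, as in 97 (14.7%). For miR-200c it was 0.14, -0.14, and -4.28 in the littermates, against -1.11, -0.29, and -0.73 in Cdr1as-/- mice, which put all Cdr1as-/- mice below littermates 1 and 2, as in 161 of the 659 (24.4%), while 0 of 5 precursors had every Cdr1as-/- mouse below all 3 littermates (2.88%). For miR-429 it was -0.20, 0.20, and -4.63 in the littermates, against -1.08, 0.12, and 0.22 in Cdr1as-/- mice, and the groups overlapped. Before scaling these positions turned. Relative to littermates 1 and 2, miR-200b was at -0.45, -0.14, and -0.05 and miR-200a at -0.78, -0.22, and -0.22 in Cdr1as-/- mice 1, 2, and 3, in each case below both of these littermates, while miR-141 was at -0.34, -0.19, and 0.19 and overlapped them. Before scaling, 3 of the 5 precursors, miR-200a, miR-200b, and miR-200c, had every Cdr1as-/- mouse below littermates 1 and 2, as in 169 of the 659 (25.6%), and 0 of 5 had every one above them (15.2% of the 659). Against all 3 littermates before scaling, 0 of 5 had every Cdr1as-/- mouse above (1.06%) and 0 of 5 every one below (1.82%).

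Averaged over the 5 precursors, the strand contrast between the genotypes was 1.003 over 6 arrays and 0.19 over 5. Before scaling it was 0.73 over 6 arrays, in which littermate 3 was at -3.87, and -0.56 over 5, so that on the 5 arrays its sign depended on the scaling. With the 75th percentile of the detected probes in place of the deposited scaling, the guide strands differed by -0.999 to -0.84 between the genotypes on the 5 arrays, and Cdr1as-/- mouse 1, at -1.90 on average, was the lowest. Limma adjusted p was between 0.319 and 0.356 for these guide differences.

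**Figure D4:**
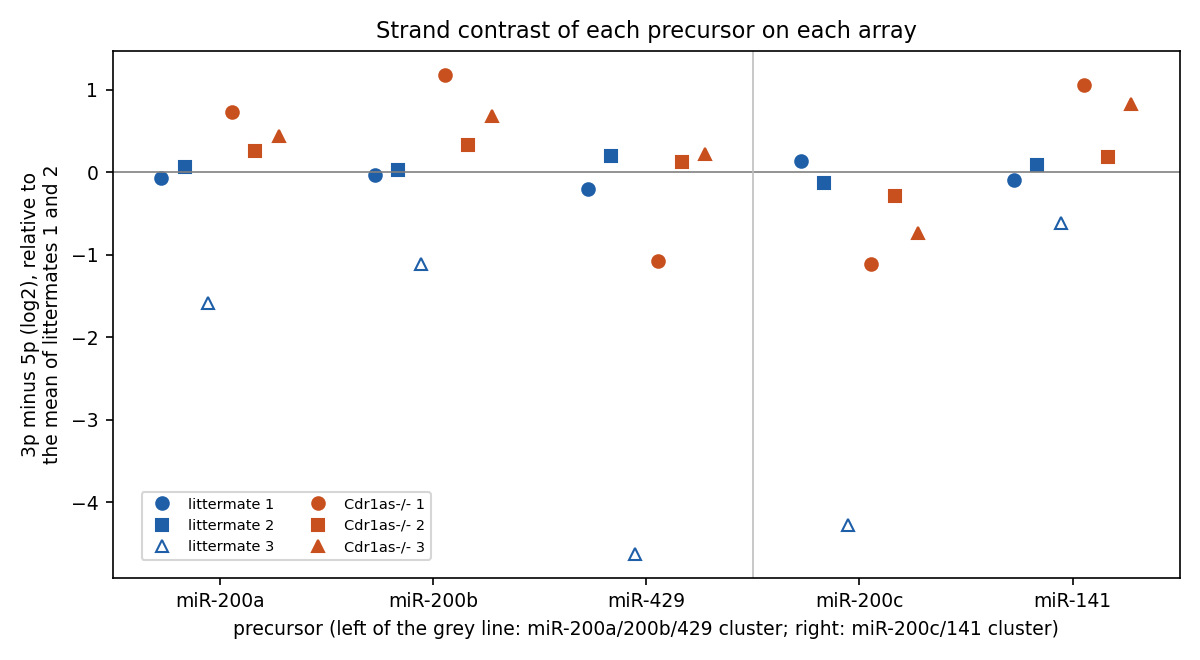
Strand contrast, the normalized 3p level minus the 5p level relative to the mean of littermates 1 and 2 (log2, y axis), of each precursor (x axis), 1 point per array. Cdr1as-/- mice (orange) lie above all littermates (blue) for miR-200a, miR-200b, and miR-141 and below littermates 1 and 2 for miR-200c, where littermate 3 (open triangle) is at -4.28. Of the 659 precursors with both strands, 2.28% had the first of these positions and 24.4% the second. Before scaling, miR-200a and miR-200b of the Cdr1as-/- mice also lie below littermates 1 and 2 and miR-141 overlaps them.

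The 5 probes of a strand moved the same way in most cases, which describes the reading of 1 RNA and is no replication over mice. All 25 probes of the guide strands were higher in Cdr1as-/- mice over 6 arrays and all 25 were lower over 5. Of the 25 probes of the passenger strands, 10 were higher over 6 arrays and 18 were lower over 5. The share over all probes was not counted. Of all rows, 60.9% were lower over 6 arrays and 42.9% over 5. Among the 58 bright rows described above, 87.9% were lower in littermate 3 than in littermates 1 and 2, so the turn of the guide probes is not particular to the family. The 5 probes of mmu-miR-200b-5p gave differences from -0.96 to -0.85 and those of mmu-miR-141-5p from -0.92 to -0.25. The 5 probes of mmu-miR-200c-5p were all higher, from 0.29 to 0.52. A single spot of the family carried the scanner's outlier flag, a probe of mmu-miR-200c-3p in Cdr1as-/- mouse 3 with a processed signal of 889 against 2490 to 2930 on the other arrays. Without that probe the level in this mouse was 12.06, and the difference of mmu-miR-200c-3p over 5 arrays was -0.28.

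Other miRNAs whose levels followed the guide strands were found by the root mean square difference of centred profiles. Over the 6 arrays, the 5 nearest rows outside the family were mmu-let-7c-5p (0.14 log2 units), mmu-miR-16-5p (0.16), mmu-miR-203-3p (0.21), mmu-let-7a-5p (0.21), and mmu-let-7b-5p (0.21), where the median of all rows was 1.39. mmu-let-7c-5p, for instance, was at 12.54, 12.41, and 8.94 in the littermates, against 12.08, 12.55, and 12.21 in Cdr1as-/- mice. Over the 5 arrays the nearest were mmu-miR-30d-3p (0.043), mmu-miR-7091-5p (0.075), mmu-miR-494-5p (0.078), mmu-miR-1969 (0.083), and mmu-miR-7016-3p (0.086), where the median was 0.37. In littermates 1 and 2, mmu-miR-30d-3p, mmu-miR-7091-5p, and mmu-miR-494-5p lay below the array medians (4.61 and 4.63), and the others above. Some guide strands lay farther from their own mean than all outside rows named. These were mmu-miR-141-3p (0.212) and mmu-miR-429-3p (0.33) over 6 arrays. Over 5 they were mmu-miR-200b-3p (0.094), mmu-miR-200c-3p (0.14), and mmu-miR-429-3p (0.20). The 2 lists shared 0 of 5 rows, so the rows most like the guide strands changed with littermate 3. The passenger strands were no nearer than 0.67 over 6 arrays, the value of mmu-miR-141-5p, and 0.25 over 5, that of mmu-miR-200a-5p.

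A list of 9 other miRNAs known from epithelia was read beside the family, and all 9 were measured. With no other tissue on the arrays, the list cannot check the tissue label. The member of the list with the highest mean level, mmu-miR-194-5p, which with miR-192 and miR-215 marks the intestinal lining, was at 15.76, 15.71, and 15.18 in the littermates, against 15.74, 15.63, and 15.86 in Cdr1as-/- mice. The processed signal of this miRNA ranged from 48300 to 59540 over 5 arrays, against 42780 for littermate 3. Over 6 arrays 9 of 9 were higher in Cdr1as-/- mice, with a median difference of 0.29 against -0.07 for all rows, of which 60.9% were lower. Over 5 arrays 7 of 9 were lower, with a median of -0.64 against 0.09 for all rows, of which 42.9% were lower. With limma, 0 of 9 passed after adjustment in either set, and over 5 arrays mmu-miR-203-3p (a difference of -0.64, adjusted p = 0.364) and mmu-miR-183-5p (a difference of -1.11, adjusted p = 0.274) had a limma p below 0.05 before adjustment. Of all rows, 10.5% were past that threshold as lower. mmu-miR-183-5p, mmu-miR-96-5p, and mmu-miR-182-5p were not well above background on all arrays, and each of these was among the 7 that were lower over 5 arrays.

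Markers of the other cells of the mucosa varied between arrays as well. The summed level of 7 smooth muscle and mesenchymal miRNAs ran from 7.57 to 11.39 in littermates and from 10.17 to 12.56 in Cdr1as-/- mice. Of these, mmu-miR-143-3p was at 10.58, 10.49, and 5.76 in the littermates, against 12.06, 11.55, and 9.32 in Cdr1as-/- mice. On this normalized scale Cdr1as-/- mouse 1 was the highest for this miRNA. It was the lowest of its group for the guide strands and for 3 of the passenger strands. The processed signal of mmu-miR-143-3p was 799, 885, and 648 in the littermates, against 5090, 2100, and 385 in Cdr1as-/- mice. In processed signal, Cdr1as-/- mouse 1 was also the brightest of its group for every passenger strand and for all guide strands but mmu-miR-429-3p. The summed level of 6 immune miRNAs, with mmu-miR-142a-3p the highest, ran from 9.25 to 12.59 in littermates and from 12.03 to 12.86 in Cdr1as-/- mice, and that of the 2 red blood cell miRNAs, with mmu-miR-451a the highest, from 5.78 to 10.06 and from 7.42 to 8.11. Not every marker was well above background on all arrays, and mmu-miR-451a was among those that were not. The lowest value of each range in littermates was that of littermate 3. Over 6 arrays, 6 of 7 mesenchymal, 5 of 6 immune, and 0 of 2 red blood cell miRNAs were higher in Cdr1as-/- mice. Of all rows, 60.9% were lower over 6 arrays and 42.9% over 5. Over 5 arrays, 3 of 7, 0 of 6, and 0 of 2 were higher, and in either set 0 of them passed with limma after adjustment. At an unadjusted limma p below 0.05 there were 0 of these markers over 6 arrays and 1 over 5, mmu-miR-451a, as lower, where 10.5% of all rows were past that threshold as lower. The part of the cell mixture in the values of the miR-200 family was not tested.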

How the data were processed

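Small RNAs of 6 mice were read on 1-colour arrays. Groups and replicate numbers were taken from the sample labels. A miRCURY LNA array is named in the study's methods, and the labels describe Cy3 labelling of the 3′ end of dephosphorylated total RNA. Per the labels, the scanner output was written with Agilent Feature Extraction 11.0.1.1. The authors deposited each spot's intensity with local background subtracted, and normalized log2 values per probe and, for 1831 miRNAs, per sample. Their normalization is not named in the sources used here. Centred deposited probe values differed from quantile normalization of the scanner signal by a median of 0.0025 log2 units, with a 95th percentile of 0.29. Each deposited miRNA value was matched, within 1e-06, to the mean unlogged value of 1 to 5 probes. The authors' own fold changes, means, p-values, and q-values in that table were not used.

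Differences (Cdr1as-/- minus littermates) were tested on the deposited log2 values, without a filter, with limma (version 3.58.1, R version 4.3.3) and Benjamini-Hochberg adjustment over 1831 rows. With the filter on dim probes, 1611 rows and 10 of 10 family members passed. The labels do not say how the samples were taken, so p-values measure the spread between these samples, and the number of arrays limits the precision. An exact two-sided permutation p cannot be below 0.1 with 3 mice in each group, or below 0.2 once littermate 3 is left out. Means over strands and contrasts between clusters, seeds, and strands are descriptions with no test. The methods' t-test was run on the same values. Before use, the fitting code was tested on simulated data. Alternatives covered the scaling, background correction, probe summary, filter, test, slide, replicate number, and each array left out, and those with no scaling, without outlier-flagged probes, or on the 5 arrays were chosen after seeing the data. Those with another scaling, no scaling, or normexp, and the differences and contrasts before scaling, also left out flagged probes where another probe of the miRNA remained. In the family this took out 1 probe, of mmu-miR-200c-3p, so such changes are not of the scaling alone. Tables were made in Python 3.11.15 (pandas 2.3.3, NumPy 2.4.6), permutations with SciPy 1.17.1, and figures with matplotlib 3.10.9. Named were the 10 members, the 5 rows nearest to the mean guide profile in each set of arrays, and of each marker list the member with the highest mean level. Further epithelial markers, for their p or their background mark, and mmu-miR-451a for its p, were named after their values were seen. The members and lists were chosen with earlier results of these data known.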

Additional observations from a re-analysis of the deposited data

How the results depend on the processing

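The number of arrays limits every value. Leaving out 1 array in turn, limma gave 0 rows after adjustment and 1 to 242 at an unadjusted p below 0.05, the highest without littermate 3. The guide mean difference ran from -0.23, without littermate 3, to 1.53, the passenger mean difference from -0.41 to 0.0934, the cluster contrast from -0.0112 to 0.22, and the strand contrast from 0.19 to 1.44. These ranges were -0.20 to 1.60 for mmu-miR-200a-3p, -0.16 to 1.40 for mmu-miR-200b-3p, -0.33 to 1.85 for mmu-miR-429-3p, -0.32 to 1.53 for mmu-miR-200c-3p, and -0.11 to 1.36 for mmu-miR-141-3p. They were -0.67 to 0.30 for mmu-miR-200a-5p, -0.90 to 0.0949 for mmu-miR-200b-5p, -0.80 to 0.31 for mmu-miR-141-5p, 0.03 to 0.39 for mmu-miR-200c-5p, and -0.31 to -0.08 for mmu-miR-429-5p. Starting from the 5 arrays without littermate 3, leaving out 1 more gave 0 to 223 rows after adjustment, the highest without Cdr1as-/- mouse 2, and 73 to 634 before it. The guide mean difference then ran from -0.31 to -0.07, the passenger mean difference from -0.53 to -0.27, the cluster contrast from -0.11 to 0.0917, and the strand contrast from 0.14 to 0.24. For single strands the sign turned in mmu-miR-141-3p (-0.20 to 0.00564), mmu-miR-429-3p (-0.53 to 0.00172), and mmu-miR-429-5p (-0.17 to 0.00105). Where a lone littermate was left, it was assumed to vary like the other group.

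With all 6 arrays, the count at an unadjusted p below 0.05, which was 6, became 2 with the 75th percentile of detected probes, 11 with quantile normalization, 0 with normexp, 21 with the methods' t-test, and 0 with no scaling. The guide mean difference of 0.92 became 0.57 with the 75th percentile of detected probes, 0.59 with normexp, 0.61 with the slide as a block, and 0.0192 with no scaling. With normexp the passenger mean difference became 0.0109, mmu-miR-200a-5p 0.0658, mmu-miR-200c-5p -0.0276, and mmu-miR-141-5p 0.0897. With the brightest probe the cluster contrast became -0.0162, mmu-miR-200a-5p 0.0726, and mmu-miR-141-5p 0.0176, and with the 75th percentile of all probes mmu-miR-200a-5p became 0.000553. With no scaling, where the median of all rows was -0.79, the passenger mean difference was -0.71, mmu-miR-200b-3p -0.0105, mmu-miR-200c-3p -0.0538, mmu-miR-141-3p -0.0156, and mmu-miR-200c-5p -0.39.

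On the 5 arrays with no scaling, where the median of all rows was 0.77, the guide mean difference was 0.000144, the passenger mean difference 0.56, and the strand contrast -0.56, and the differences were 0.35 for mmu-miR-200a-5p, 0.15 for mmu-miR-200b-5p, 0.20 for mmu-miR-141-5p, 0.62 for mmu-miR-429-5p, 0.0932 for mmu-miR-141-3p, and 0.0616 for mmu-miR-429-3p. With the 75th percentile of detected probes the guide mean difference was -0.93 and the strand contrast -0.56, with normexp they were -0.79 and -0.28 and the unadjusted count was 3, and with the brightest probe the strand contrast was 0.31. The cause of these changes was not tested.

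With the replicate number as a block, 3 rows had an unadjusted limma p below 0.05, and no adjusted call of a family member changed. Every number holds a mouse of each genotype, so this block leaves each difference as it was and could not turn a sign. Whether the numbers pair the samples is not known. The correlation of deviations from the group means was -0.76, 0.56, and -0.22 for the pairs 1, 2, and 3. For littermate 2 and Cdr1as-/- mouse 1, which do not share a number, it was -0.81. Littermate 3 lay far from littermates 1 and 2 and set much of these deviations, so the correlations cannot decide the question.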
